A study of Mus musculus with 12 samples.

Results

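The 10 genes described here encode secreted ligands of the transforming growth factor beta (TGF-β) superfamily: Tgfb1, Tgfb2 and Tgfb3, the bone morphogenetic proteins Bmp2, Bmp4 and Bmp6, the growth differentiation factors Gdf10 and Gdf15, and Inhba and Inhbb, whose products are the subunits of activins and inhibins. They were chosen by symbol, with earlier results of these data known, and all 10 were found among the 52858 genes measured. All 10 were also among the 15240 genes with enough reads to be tested. RNA had been sequenced from mouse heart tissue in 4 groups of 3 libraries, and the part of the heart taken for it is not given in the sources used here. C57 hearts came from C57BL/6J mice, the background strain, and Slit2 hearts from Slit2-Tg mice, which carry a full-length human SLIT2 cDNA behind the CMV promoter, a viral promoter that is active in many cell types and not in cardiomyocytes alone. The transgene was injected into oocytes of a C57 × CBA cross. Effects of the transgene and of other differences between the lines cannot be told apart here. The mice were young adult males in all groups. Every heart was taken out and perfused with buffer in place of blood on a Langendorff apparatus, and IR hearts (C57-IR and Slit2-IR) were additionally subjected to global ischemia and then reperfusion, while non-IR hearts (C57-non-IR and Slit2-non-IR) were perfused without interruption. The comparisons ask which of these ligand genes changed within the short time of an ischemia-reperfusion (IR) experiment and whether Slit2 overexpression altered their level before or after it.

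Ligands of this superfamily are made as precursors that pair into dimers and are cut by furin-like proteases. The TGF-β proteins are then kept latent, bound to their own propeptide and to carrier proteins in the matrix or on the cell surface, until integrins, proteases or thrombospondins release them. Active dimers bring type I and type II receptor kinases together. TGF-β and activin receptors mainly phosphorylate SMAD2 and SMAD3, BMP receptors mainly phosphorylate SMAD1, SMAD5 and SMAD9, and SMAD4 joins both, while SMAD6 and SMAD7 inhibit the pathway. In the injured heart the family is known for fibroblast activation, scar formation and the control of inflammation, and GDF15 is known as a stress-induced protein that circulates after cardiac injury.

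Levels are given as FPKM, the fragments counted on a gene divided by the gene's length and by a scaling factor of the library. They can be compared between genes. In these files the scaling factors had been set over all libraries together and not from each library's own depth. Log2 fold changes are on the log2(FPKM + 1) scale and were tested with limma, and a gene was called where its Benjamini-Hochberg adjusted p over all tested genes was under 0.05. Ratios given as -fold or times are of mean FPKM, a different measure. The added 1 pulls log2 fold changes toward 0, most at low FPKM. Between 16601154 and 24841291 reads fell on genes per library, of which 19.7% to 26.0% were mitochondrial. The summed FPKM of 8 ventricular cardiomyocyte marker genes was at least 14990 in each library, against at most 330.1 for 8 endothelial and 1063 for 8 fibroblast markers. The replicate 1 library of each group stood apart in macrophage and ventricular markers. The sum of 8 macrophage markers was 205.1 to 289.2 FPKM in these 4 libraries and 320.2 to 467.5 in the other 8. The ventricular sum was at least 19500 in the 4 and at most 18170 in the 8. The sums of the other marker lists overlapped between the 4 and the 8. Slit2-IR replicate 1 also held an atrial marker sum of 1780 FPKM, with Myl7 at 1049, whereas the other 11 libraries ranged from 37.7 to 256.7. Bmp10, a ligand gene that is also on the atrial marker list, was at 0 in 6 libraries and at no more than 0.0131 FPKM in any, so it did not follow that sum. In bulk tissue, fewer cells of a type and less RNA per cell cannot be told apart. The mouse Slit2 gene itself averaged 0.195 FPKM in C57-non-IR, 0.178 in Slit2-non-IR, 0.243 in C57-IR hearts and 0.350 in Slit2-IR hearts, where the libraries ranged from 0.0847 to 0.813, but its row does not check the genotype labels, since the transgene is a human cDNA.

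Bmp6 was the most abundant ligand transcript in all 4 groups. Inhba had the lowest mean in all 4, but its libraries overlapped those of Inhbb in every group other than C57-non-IR. In C57-non-IR hearts Bmp6 stood at 23.7 ± 6.95 FPKM (SD, n = 3), and its lowest library did not overlap the highest library of the next gene, Tgfb1, in any group. Below it in the same hearts followed Tgfb1 at 5.70 ± 0.911, Tgfb3 at 4.90 ± 0.251, Bmp4 at 3.93 ± 0.750 and Gdf10 at 2.46 ± 0.457 FPKM, and of these neighbours Tgfb1 and Tgfb3 overlapped while the others did not. Gdf15 at 1.46 ± 0.203, Tgfb2 at 1.19 ± 0.161, Bmp2 at 1.14 ± 0.290 and Inhbb at 0.921 ± 0.0931 formed a low tier in which each overlapped the next. Inhba lay under it at 0.505 ± 0.232 FPKM. The order of the means was the same in Slit2-non-IR hearts, where each gene below Bmp6 overlapped the next. After IR, Gdf15 moved up by group mean from place 6 to place 4 in C57-IR and place 3 in Slit2-IR hearts, and Bmp2 from place 8 to places 6 and 5. In these places each overlapped the gene just above it. In the plot of ligand levels, these are the 2 genes whose dark IR points all lie above the pale non-IR points in both genotypes.

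**Figure D1:**
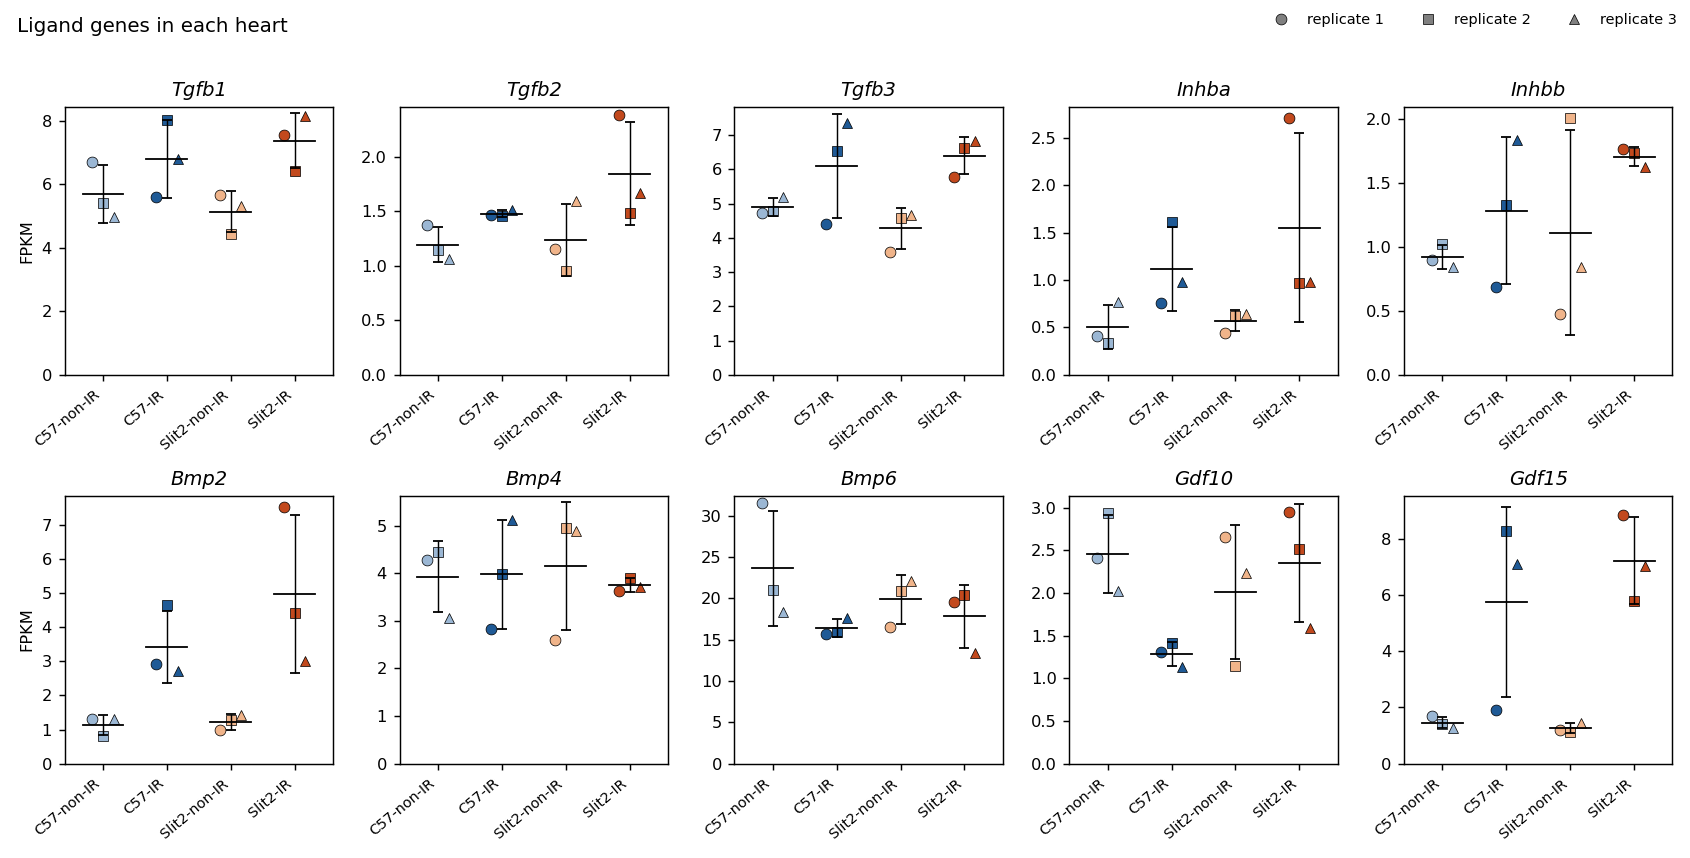
FPKM (vertical axes, linear and starting at 0) of each ligand gene in each of the 12 hearts, with 1 panel per gene and the 4 groups along the horizontal axis. Points are libraries, with a marker shape for each replicate number, and bars are group means ± SD (n = 3). Gdf15 lies between 1.12 and 1.68 FPKM in non-IR hearts and between 1.92 and 8.86 FPKM in IR hearts, and Bmp2 between 0.808 and 1.42 and between 2.73 and 7.52 FPKM.

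After IR, 2 of the 10 ligands were called in the mean IR effect over both genotypes, Gdf15 and Bmp2, both higher. Of all tested genes, 2.34% were called higher and 3.49% in either direction. In Slit2-Tg hearts alone the same 2 ligands were called higher, where 0.446% of genes were. When same-numbered libraries were blocked, the count of all genes called in either direction there went from 80 to 202, and the 2 ligands were called again (adjusted p = 0.0460 and 0.0435, limma). In C57BL/6J hearts alone limma called 0 of 10, as did limma-voom on reads, while 4 passed 0.05 before adjustment, 2 of them higher and 2 lower, and the background was 0.459% of genes at the adjusted and 8.96% at the unadjusted threshold. The median log2 fold change of the 10 ligands was 0.22 in C57BL/6J and 0.44 in Slit2-Tg hearts, against medians of 0.001 and 0.005 over all tested genes. Estimates were above 0 for 8 of 10 ligands in each genotype, and for 50.5% and 51.6% of tested genes. Since the 10 were chosen with earlier results of these data known, their counts and medians are a description and not a test.

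Gdf15 showed the larger change of the 2 called ligands. It encodes growth differentiation factor 15, a distant member of the superfamily that signals through the brainstem receptor GFRAL and is induced by the integrated stress response. Its gene lies on chromosome 8, 70629393 to 70632456 on the minus strand of GRCm38, and overlaps no other annotated gene. Its promoter sequences are shown because Gdf15 is the called ligand for which the RefSeq promoter table holds an entry (250 bases before to 50 after each start, GRCm38.p6). There are 2 start sites, and capitals mark the only motif match, CACGTG, the E-box bound by USF and clock factors, in the second window at position -83 from that start. The windows are chr8:70632407-70632706 and chr8:70632046-70632345, both read on the minus strand, and the second lies inside the annotated gene.
Gdf15 window 1: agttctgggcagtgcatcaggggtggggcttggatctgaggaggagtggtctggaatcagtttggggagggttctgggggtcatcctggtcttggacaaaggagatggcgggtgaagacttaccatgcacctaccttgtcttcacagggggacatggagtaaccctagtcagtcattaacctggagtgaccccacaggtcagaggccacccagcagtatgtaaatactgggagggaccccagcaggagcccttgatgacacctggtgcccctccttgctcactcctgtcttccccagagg
Gdf15 window 2: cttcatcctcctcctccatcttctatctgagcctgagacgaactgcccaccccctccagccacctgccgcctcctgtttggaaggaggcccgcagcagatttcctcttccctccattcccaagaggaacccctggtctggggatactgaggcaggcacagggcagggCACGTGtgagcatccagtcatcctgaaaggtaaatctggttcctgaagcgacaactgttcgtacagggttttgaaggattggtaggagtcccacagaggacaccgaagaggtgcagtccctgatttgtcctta
Of 32851 promoter windows of this length in the table, 7.15% hold CACGTG, so the match is a description of the sequence and not a site. No window of Gdf15 held the letters searched for AP-1 (TGANTCA), the cyclic AMP response element (TGACGTCA) or the C/EBP-ATF composite site (TGATGCAA), each searched on both strands.

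In C57-non-IR hearts Gdf15 was at 1.68, 1.43 and 1.28 FPKM, and in C57-IR hearts at 1.92, 8.27 and 7.09 FPKM. In Slit2-non-IR hearts it was at 1.20, 1.12 and 1.45 FPKM, and in Slit2-IR hearts at 8.86, 5.79 and 7.03 FPKM. All 6 IR hearts were above all 6 non-IR hearts, but C57-IR replicate 1 exceeded the highest of them only narrowly while the other 5 were several-fold higher. Mean Gdf15 was 4.77-fold higher in IR than in non-IR hearts, and the log2 fold change on the log2(FPKM + 1) scale was 1.57 ± 0.24 (SE, adjusted p = 0.00523, limma). By genotype it rose 5.75-fold in Slit2-Tg hearts (1.85 ± 0.34, adjusted p = 0.0457), and in C57BL/6J hearts the mean was 3.94-fold higher without passing the threshold (1.29 ± 0.34, adjusted p = 0.165). Without C57-IR replicate 1, the lowest IR heart, the C57BL/6J estimate was 1.82 with an adjusted p of 0.000797 (limma). The C57BL/6J effect was called under 2 of 19 alternatives, both without that library. It had the lowest macrophage sum of all libraries, 205.1 FPKM, while Slit2-IR replicate 1, the highest for Gdf15, had a sum of 225 FPKM. A link between the 2 was not tested. The mean IR effect was called under all 18 alternatives, with adjusted p between 1.54e-05 and 0.0214 (limma or limma-voom). The call in Slit2-Tg hearts alone was near the threshold: it held under 8 of 19 alternatives, was lost on leaving out any 1 library other than C57-IR replicate 1 or 2, and its adjusted p reached 0.169.

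Bmp2 also rose after IR. Bone morphogenetic protein 2 is a BMP ligand that acts in heart valve and chamber development and in endothelial cells, and its gene, on chromosome 2 from 133552159 to 133562885 on the plus strand, overlaps no other. It was at 1.32, 0.808 and 1.30 FPKM in C57-non-IR and at 2.92, 4.65 and 2.73 FPKM in C57-IR hearts. In Slit2-non-IR hearts it was at 0.976, 1.27 and 1.42 FPKM, and in Slit2-IR hearts at 7.52, 4.42 and 3.00 FPKM. Every IR heart was above every non-IR heart, with Slit2-IR replicate 1 the highest. The mean IR level was 3.56-fold that of non-IR hearts (log2 fold change 1.20 ± 0.18, adjusted p = 0.00443, limma), and the call held under all 18 alternatives. The rise was 4.08-fold in Slit2-Tg hearts (1.36 ± 0.25, adjusted p = 0.0428), and the C57BL/6J mean was 3.00-fold higher with an adjusted p of 0.117 (1.03 ± 0.25, limma). Slit2-IR replicate 1 is the library with the high atrial sum. Without it the mean IR effect of Bmp2 was 1.05 with an adjusted p of 0.00658 (limma), and the effect in Slit2-Tg hearts was 1.07 with an adjusted p of 0.125. The call in Slit2-Tg hearts alone held under 7 of 19 alternatives and was lost on leaving out any 1 library other than C57-IR replicate 1, C57-IR replicate 2 or Slit2-IR replicate 3.

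The 3 TGF-β genes were higher after IR in their estimates, by less than the called ligands, and none of them passed the adjusted threshold. TGF-β1 is the main isoform made by immune cells and platelets, and TGF-β2 and TGF-β3 act in heart development and in fibroblasts. Tgfb1 (chromosome 7) was at 6.72, 5.42 and 4.96 FPKM in C57-non-IR, 5.59, 8.03 and 6.79 in C57-IR, 5.68, 4.43 and 5.31 in Slit2-non-IR, and 7.56, 6.43 and 8.15 FPKM in Slit2-IR hearts. The groups overlapped in C57BL/6J hearts and not in Slit2-Tg hearts. The log2 fold change was 0.22 ± 0.14 in C57BL/6J and 0.45 ± 0.14 in Slit2-Tg hearts, and the mean of both was 0.33 ± 0.10 (adjusted p = 0.115, unadjusted p = 0.00761, limma).

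Tgfb3 (chromosome 12) was at 4.74, 4.78 and 5.19 FPKM in C57-non-IR, 4.40, 6.53 and 7.37 in C57-IR, 3.59, 4.58 and 4.67 in Slit2-non-IR, and 5.78, 6.62 and 6.82 FPKM in Slit2-IR hearts. C57-IR replicate 1 was the lowest IR heart, as for Gdf15, and for Tgfb3 it lay among the non-IR hearts. The mean IR effect was 0.37 ± 0.11 with an adjusted p of 0.0971 (limma), and without C57-IR replicate 1 it was 0.46 with an adjusted p of 0.00860. It was called under 3 of 18 alternatives. Tgfb2 (chromosome 1) was at 1.37, 1.14 and 1.06 FPKM in C57-non-IR, 1.46, 1.45 and 1.51 in C57-IR, 1.16, 0.951 and 1.60 in Slit2-non-IR, and 2.38, 1.48 and 1.67 FPKM in Slit2-IR hearts. Its highest value was again in Slit2-IR replicate 1, and its mean IR effect was 0.26 ± 0.09 with that library and 0.20 without it (adjusted p = 0.169 and 0.293, limma). Exons of Tgfb2 and Tgfb3 overlap those of opposite-strand genes known only by Gm numbers. The use of strand in counting is not given in the sources used here, so their reads cannot be told apart from those genes' reads.

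The activin subunit genes were also higher after IR in their estimates, without passing the adjusted threshold. Inhba encodes the βA subunit of activin A, a ligand that signals through SMAD2 and SMAD3 like TGF-β, and Inhbb the βB subunit. Inhba (chromosome 13, 16011851 to 16031621) was at 0.413, 0.334 and 0.769 FPKM in C57-non-IR and 0.762, 1.61 and 0.975 in C57-IR hearts. It was at 0.445, 0.624 and 0.643 FPKM in Slit2-non-IR and 2.71, 0.969 and 0.983 in Slit2-IR hearts. All Slit2-IR hearts were above all Slit2-non-IR hearts, and in C57BL/6J hearts the groups met at 0.769 and 0.762. Mean Inhba was 2.48-fold higher in IR than in non-IR hearts, and the log2 fold change was 0.56 ± 0.16 (adjusted p = 0.0953, unadjusted p = 0.00547, limma). Without Slit2-IR replicate 1 it was 0.41 (adjusted p = 0.0998). On the log2(FPKM + 1) scale the change of so low a gene is understated, and with a pseudocount of 0.1 the estimate was 1.08 (adjusted p = 0.0623). Inhbb (chromosome 1) was at 1.76, 1.73 and 1.62 FPKM in the Slit2-IR hearts and spread from 0.476 to 2.01 over the other 9, with a mean IR effect of 0.32 ± 0.17 (adjusted p = 0.393).

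Gdf10 had the lowest estimate of the 10 ligands after IR in C57BL/6J hearts. Gdf10, also known as BMP3b, is a divergent BMP that is known to oppose adipocyte differentiation. Its gene is on chromosome 14 (33923587 to 33935280, plus strand) and overlaps no other. It was at 2.41, 2.94 and 2.03 FPKM in C57-non-IR and 1.30, 1.42 and 1.14 in C57-IR hearts, so every C57-IR heart was lower. In Slit2-Tg hearts it was at 2.65, 1.14 and 2.24 FPKM without IR and at 2.95, 2.52 and 1.59 after IR, and there the groups overlapped. Mean Gdf10 in C57-IR hearts was 0.522 times that of C57-non-IR hearts (log2 fold change -0.59 ± 0.20, adjusted p = 0.344, unadjusted p = 0.0139, limma). In Slit2-Tg hearts the estimate was 0.17 ± 0.20 (adjusted p = 0.846), which became -0.06 without Slit2-non-IR replicate 2. Every Slit2-IR heart was above every C57-IR heart, a log2 difference of 0.53 ± 0.20 (adjusted p = 0.9996, unadjusted p = 0.0234, limma). The interaction, the IR effect in Slit2-Tg minus that in C57BL/6J hearts, was 0.76 with a 95% interval of 0.13 to 1.39, and its adjusted p was 0.9998 (unadjusted p = 0.0223, limma). The study selected Gdf10 from these same samples for this pattern, which is therefore not independent evidence of it. Of all tested genes, 1.78% were on the higher side of this comparison at the unadjusted threshold, and 3.03% were higher without overlap.

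Bmp6 and Bmp4 were not called in any comparison. BMP6 is known as the endothelial signal that induces hepcidin in iron regulation, and BMP4 as a ligand of heart and vessel development. Bmp6 (chromosome 13) was at 31.5, 21.1 and 18.4 FPKM in C57-non-IR and at 15.6, 16.0 and 17.6 in C57-IR hearts, so the groups did not overlap. In Slit2-Tg hearts it was at 16.5, 20.9 and 22.1 FPKM without IR and at 19.6, 20.4 and 13.4 after IR, and they did. The log2 fold change was -0.47 ± 0.20 in C57BL/6J hearts (adjusted p = 0.510, unadjusted p = 0.0410, limma) and -0.16 ± 0.20 in Slit2-Tg hearts. Non-overlap in either direction was found for 13.8% of tested genes in the C57BL/6J comparison and for 5 of the 10 ligands, Gdf15, Bmp2 and Tgfb2 higher and Gdf10 and Bmp6 lower. In Slit2-Tg hearts it was found for 16.9% of genes and again for 5 ligands, Gdf15, Bmp2, Tgfb1, Tgfb3 and Inhba, all higher. Bmp4 (chromosome 14) ranged from 2.60 to 5.12 FPKM over all 12 hearts, and its mean IR effect was -0.04 with a 95% interval of -0.37 to 0.29. Exons of both genes overlap a gene on the opposite strand, Txndc5 for Bmp6 and Gm15217 for Bmp4, so their reads are uncertain in the same way as those of Tgfb2 and Tgfb3.

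**Figure D2:**
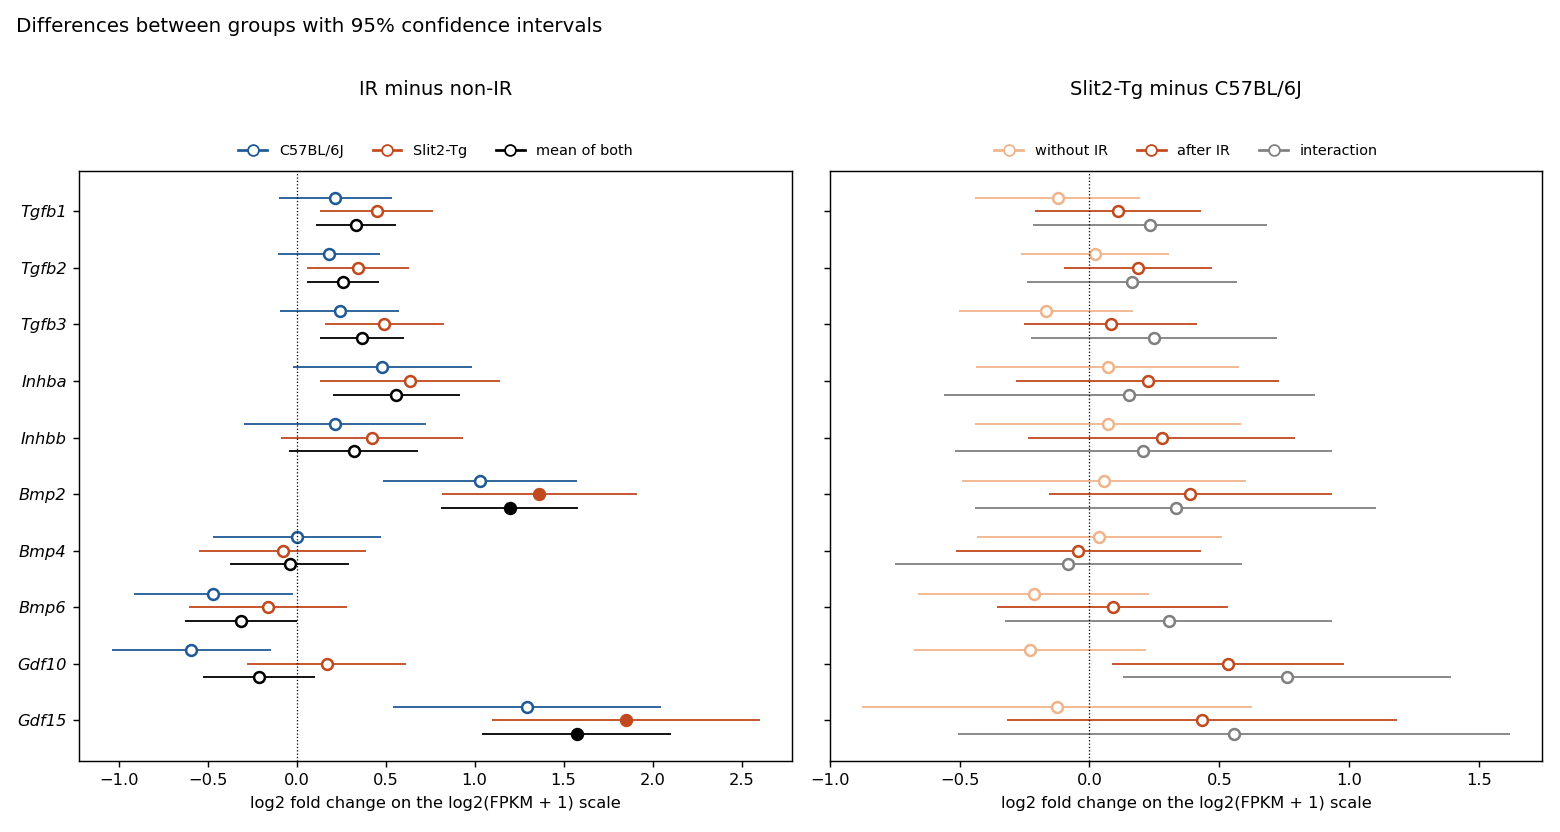
Log2 fold changes on the log2(FPKM + 1) scale (horizontal axes) of the 10 ligands, with lines for 95% confidence intervals and filled points for an adjusted p under 0.05 (limma). The left panel gives IR minus non-IR hearts in each genotype and over both. The right panel gives Slit2-Tg minus C57BL/6J hearts without and after IR, and the interaction, where no point is filled. The filled points are Gdf15 and Bmp2 in Slit2-Tg hearts and in the mean of both genotypes.

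Slit2-Tg and C57BL/6J hearts were not called different in any of the 10 ligands, either without or after IR, by limma or by limma-voom on reads. Without IR, the log2 differences ran from -0.23 for Gdf10 to 0.07 for Inhbb, 0 of 10 had an unadjusted p under 0.05, and the background was 0.0394% of genes at the adjusted and 3.19% at the unadjusted threshold. The intervals of these 10 differences lay between -0.88 and 0.63. After IR, the differences ran from -0.04 for Bmp4 to 0.53 for Gdf10, with Gdf15 at 0.43 (95% interval -0.32 to 1.18) and Bmp2 at 0.39 (-0.16 to 0.93). Of these, 1 of 10, Gdf10, had an unadjusted p under 0.05, where 3.16% of genes did. The adjusted threshold was passed by 0.0459% of genes after IR. With 3 hearts a group, the data leave room for differences of either sign within these intervals.

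The interaction of genotype and IR was not called for any ligand, nor for any of the 15240 genes. At the unadjusted threshold Gdf10 passed alone among the ligands, against 1.86% of genes. The interaction was 0.56 for Gdf15 with an interval of -0.51 to 1.62, and 0.33 for Bmp2 with an interval of -0.44 to 1.10. Gdf15 and Bmp2 were thus called after IR in Slit2-Tg and not in C57BL/6J hearts, but the difference between the genotypes was not shown. Both comparisons of genotype share their libraries with the IR comparisons and are not independent of them.

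Over the 12 libraries, the levels of several ligands moved together. The highest correlation among the 45 ligand pairs was that of Bmp2 and Inhba (Pearson r = 0.920 over 12 libraries on the log2(FPKM + 1) scale), and it was 0.914 within the 6 IR and 0.722 within the 6 non-IR hearts. Both genes were highest in Slit2-IR replicate 1 (7.52 and 2.71 FPKM), followed by C57-IR replicate 2 (4.65 and 1.61 FPKM). These libraries also had the highest atrial sums, 1780 and 257 FPKM, and their part in the correlation was not tested. Gdf15 and Bmp2 correlated at 0.884 over all libraries but at 0.501 within IR and 0.160 within non-IR hearts. Gdf15 and Tgfb1 correlated at 0.869, with 0.855 within IR and 0.807 within non-IR hearts. Among all tested genes with a mean of at least 1 FPKM, those most like Gdf15 were Nfkbie (r = 0.974), an inhibitor of NF-κB, Ptx3 (0.971), a secreted pattern recognition protein, and Uap1 (0.969), an enzyme of amino sugar synthesis. Within the 6 IR hearts these correlations were 0.948, 0.918 and 0.882, and within the 6 non-IR hearts -0.00896, -0.418 and -0.716. Most like Bmp2 were Sele (0.966), the endothelial adhesion molecule E-selectin, Dusp4 (0.961), a phosphatase of MAP kinases, and Abra (0.959), with 0.865, 0.882 and 0.861 within IR and 0.583, 0.216 and 0.765 within non-IR hearts. All are descriptions over hearts that share 2 conditions and, by replicate number, macrophage and ventricular marker content.

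Beyond these 10 ligands, 6 of the 22 other ligand genes listed had enough reads to be tested. None was called in any comparison (limma), where 3.49% of all genes were in the mean IR effect. The most abundant were Lefty1 at 1.02 and Gdf11 at 0.862 FPKM over the 12 libraries.

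No receptor gene was called after IR. Of 12 type I and type II receptor genes, 9 were tested and 0 passed either threshold in the mean IR effect, where 15.9% of all genes passed the unadjusted one. Acvrl1, the type I receptor of endothelial cells, averaged 11.3 FPKM in non-IR and 11.7 in IR hearts. Bmpr1a, a type I receptor of BMP2 and BMP4, averaged 9.31 and 10.5 FPKM. Of 8 co-receptor genes, 5 were tested and 0 were called, where 3.49% of all genes were called in either direction. All 5 estimates were below 0, with a median of -0.09, where 51.3% of all tested genes were above 0. Hfe2 (hemojuvelin), the BMP co-receptor of iron regulation, was at 101 and 97.3 FPKM, and endoglin (Eng), an endothelial co-receptor, at 66.1 and 52.7 FPKM (log2 fold change -0.33 ± 0.13, adjusted p = 0.239, limma). Gfral, the receptor of GDF15, was among the 3 co-receptor genes with too few reads to be tested.

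Among the 8 SMAD genes, all tested, 1 was called in the mean IR effect, where 3.49% of all genes were called in either direction, and it was lower. Smad6, the inhibitory SMAD that mainly restrains BMP signalling, was at 9.75, 9.86 and 9.41 FPKM in C57-non-IR and at 4.90, 5.90 and 5.76 in C57-IR hearts. In Slit2-Tg hearts it was at 6.29, 9.98 and 8.38 FPKM without IR and at 5.32, 5.49 and 5.71 after IR. All 6 IR hearts were below all 6 non-IR hearts. Mean Smad6 fell to 0.617 times its non-IR level (log2 fold change -0.60 ± 0.09, adjusted p = 0.00571, limma), and it was also called in C57BL/6J hearts alone (-0.71 ± 0.13, adjusted p = 0.0487). The mean call held under all 18 alternatives and the C57BL/6J call under 6 of 19, being lost on leaving out any 1 library other than Slit2-non-IR replicate 1 or 2 (adjusted p up to 0.177, limma). Smad7, which inhibits both branches, was at 9.39 and 8.94 FPKM without and after IR, with a log2 fold change of -0.08 and an interval of -0.35 to 0.20. Smad4, the shared SMAD, was at 11.1 and 11.7 FPKM.

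**Figure D3:**
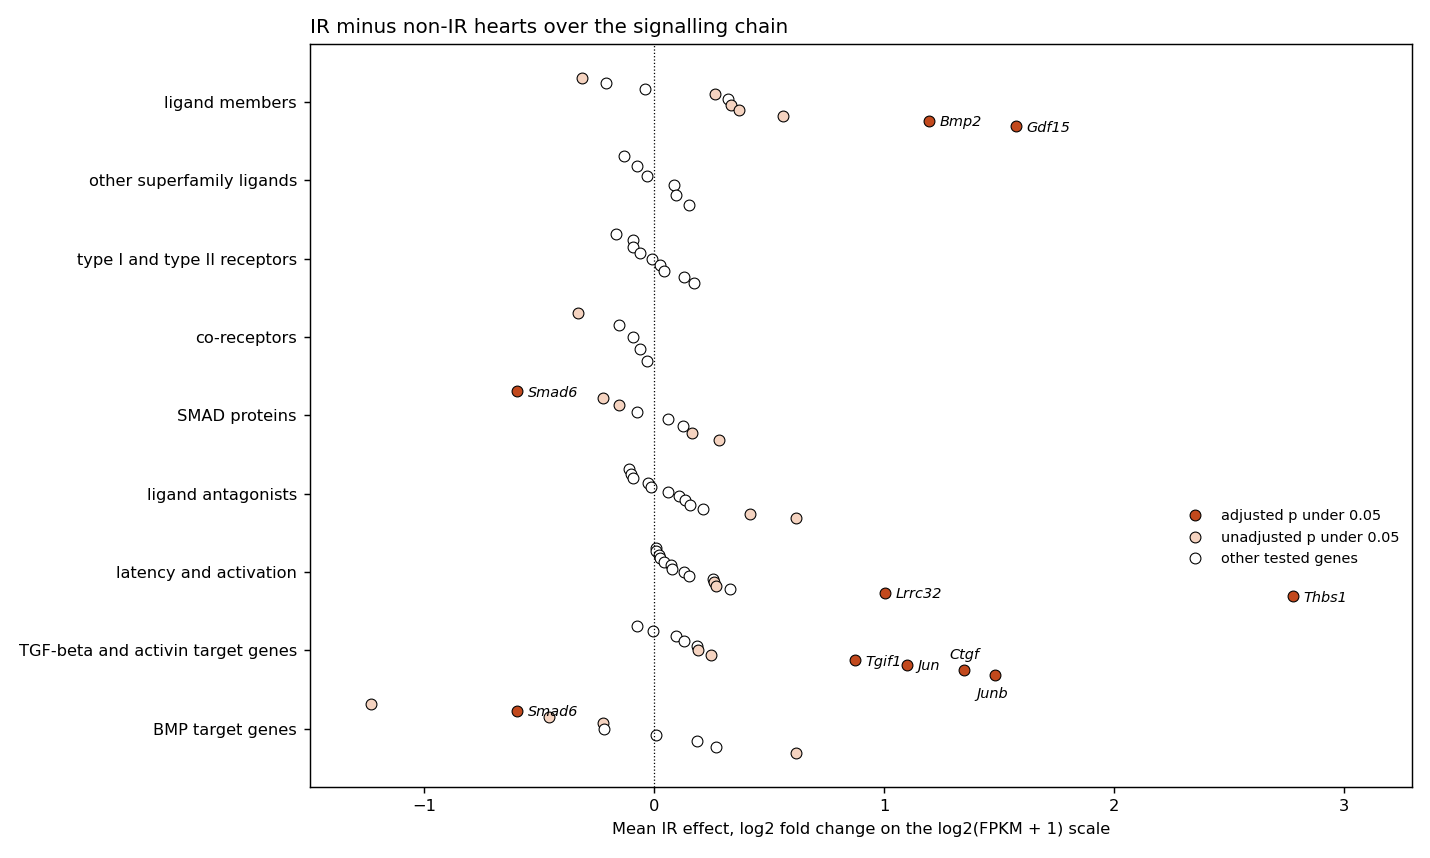
Mean IR effect over both genotypes (horizontal axis, log2 fold change on the log2(FPKM + 1) scale) for each tested gene of the ligands and of 8 lists of the signalling chain (rows). Dark points have an adjusted p under 0.05 and are named, pale points have an unadjusted p under 0.05, and open points neither (limma). Receptors and co-receptors hold no dark point, whereas latency and activation genes and TGF-β targets hold dark points on the right, at 0.87 or more, and Smad6 lies on the left at -0.60.

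Of the 15 genes that hold TGF-β latent or activate it, all tested, 2 were called higher and 0 lower in the mean IR effect, where 2.34% of all genes were called higher. The other 13 were not called. The median of the 15 estimates was 0.13, and all 15 were above 0 in the mean, 13 in C57BL/6J and 11 in Slit2-Tg hearts, where 51.3%, 50.5% and 51.6% of all tested genes were. Thbs1 encodes thrombospondin 1, a matrix protein known to activate latent TGF-β and to be an immediate-early gene itself. It was at 6.96, 8.90 and 11.6 FPKM in C57-non-IR, 22.7, 89.6 and 80.6 in C57-IR, 2.14, 16.7 and 9.99 in Slit2-non-IR, and 86.6, 65.7 and 61.4 FPKM in Slit2-IR hearts. It rose 7.22-fold (log2 fold change 2.78 ± 0.43, adjusted p = 0.00523, limma), with every IR heart above every non-IR heart. Lrrc32 encodes GARP, which tethers latent TGF-β1 to the surface of cells such as platelets and endothelial cells. It was at 7.30, 6.13 and 7.28 FPKM in C57-non-IR, 9.77, 17.4 and 18.2 in C57-IR, 5.66, 6.68 and 5.39 in Slit2-non-IR, and 11.6, 16.4 and 11.5 FPKM in Slit2-IR hearts. It rose 2.21-fold (log2 fold change 1.005 ± 0.15, adjusted p = 0.00443, limma), again with no overlap. Both calls held under all 18 alternatives. C57-IR replicate 1 was the lowest IR heart for both genes, as it was for Gdf15. Ltbp4, a latent TGF-β binding protein of elastic fibres, was the most abundant of the list at 93.2 FPKM without and 105 after IR (0.15 ± 0.13, adjusted p = 0.660).

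Of 11 TGF-β and activin target genes, all tested, 4 were called higher after IR and 0 lower in the mean IR effect, where 2.34% of all genes were called higher. Tgif1, a SMAD corepressor, averaged 0.761 FPKM in non-IR and 2.24 in IR hearts (log2 fold change 0.87 ± 0.12, adjusted p = 0.00417, limma). Ctgf, a matricellular protein of fibrosis, averaged 31.7 and 79.5 FPKM, with 1 IR heart at 45.3 under the highest non-IR heart at 48.5 (1.35 ± 0.31, adjusted p = 0.0420). The other 2 were the immediate-early transcription factors Jun, at 191 and 418 FPKM (1.10 ± 0.18, adjusted p = 0.00646), and Junb, at 134 and 369 FPKM (1.48 ± 0.32, adjusted p = 0.0298). Ctgf, Jun and Junb are also known to respond to serum or stretch without TGF-β. Tgif1 was called under all 18 alternatives, Jun under 17, Junb under 11 and Ctgf under 8. The Jun call was lost without replicate 1 of every group (adjusted p = 0.0578, limma). That of Junb was lost without any 1 C57-non-IR library, C57-IR replicate 2 or Slit2-IR replicate 1 or 2 (adjusted p up to 0.0724), and that of Ctgf without any 1 library other than C57-IR replicate 1 or Slit2-non-IR replicate 1 or 2 (up to 0.103). Smad7, also a target, was not called.

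No tested BMP target gene was called higher after IR. Of 12 listed, 9 were tested, and Hamp, with its highest library at 44.6 FPKM, was not. In the mean IR effect 0 were called higher, where 2.34% of all genes were. Smad6, the gene already given among the SMADs, was called lower, where 3.49% of all genes were called in either direction. At the unadjusted threshold 1 was higher and 4 were lower, where 15.9% of all genes passed. Id1, a transcriptional inhibitor and a direct SMAD1 and SMAD5 target, was at 91.7, 175 and 128 FPKM in C57-non-IR, 29.2, 79.2 and 88.3 in C57-IR, 70.8, 142 and 129 in Slit2-non-IR, and 16.8, 50.3 and 83.6 FPKM in Slit2-IR hearts. In each group replicate 1, the library with the lowest macrophage sum of its group, was also the lowest for Id1. Mean Id1 in IR hearts was 0.472 times that in non-IR hearts, but the estimate of -1.23 ± 0.40 did not pass the adjusted threshold (adjusted p = 0.133, unadjusted p = 0.00979, limma). It was called under 2 of 18 alternatives, and without replicate 1 of every group it was -0.94 (adjusted p = 0.0407). In Slit2-Tg hearts alone the Id1 estimate was -1.37, with an adjusted p of 0.374, or 0.0476 when same-numbered libraries were blocked (replicate block, limma). Id3, a close relative, was at 66.8 and 68.8 FPKM, with a log2 fold change of 0.01 and an interval of -0.51 to 0.52.

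**Figure D4:**
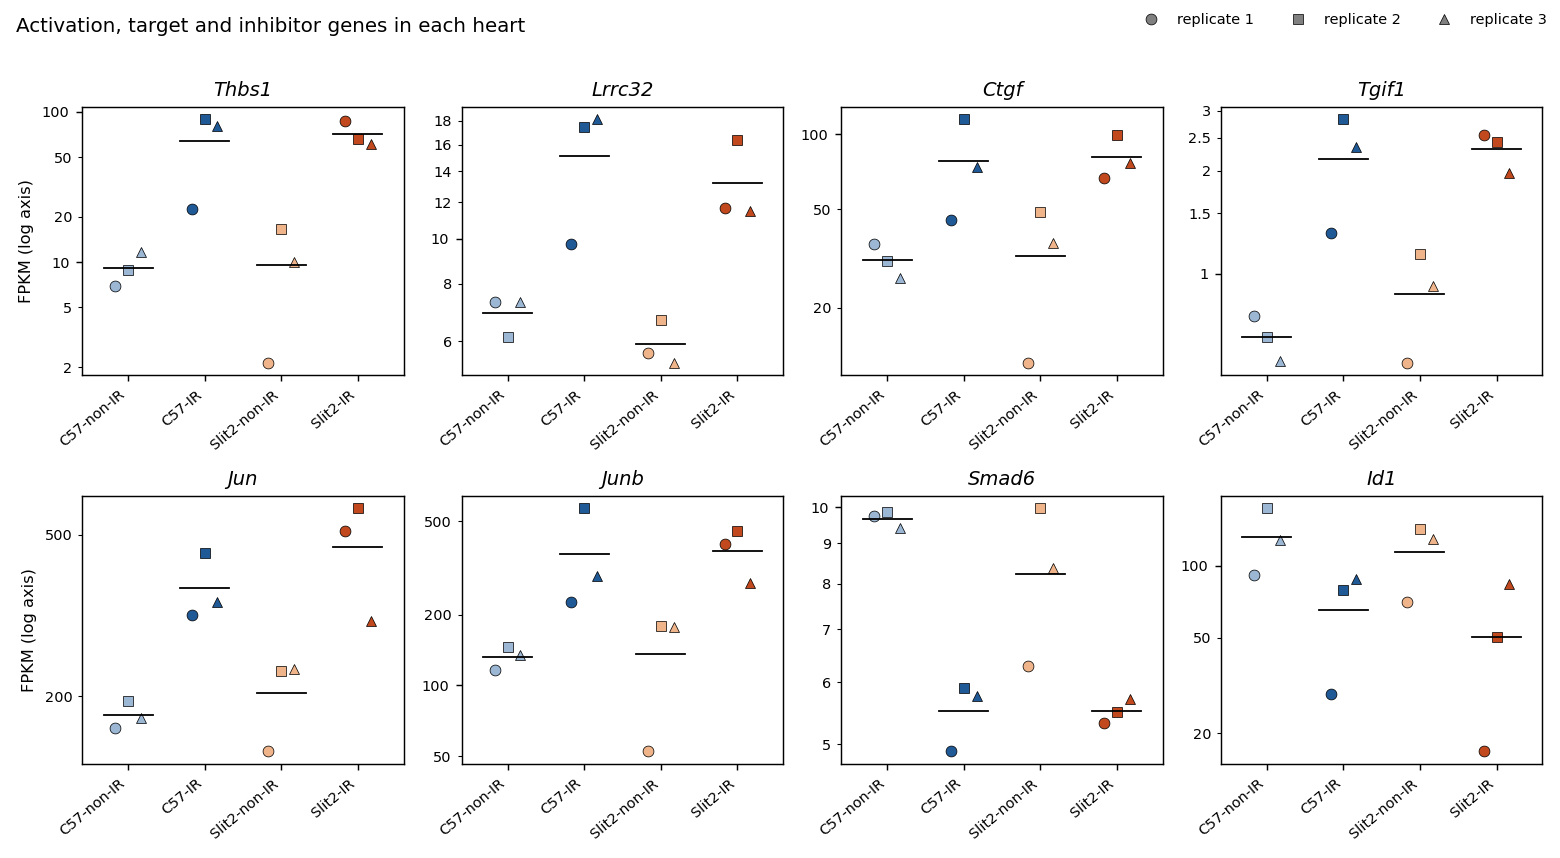
FPKM on log axes (vertical) of 8 genes of the signalling chain in each of the 12 hearts, by group (horizontal), with 1 marker shape per replicate number and a line at each group mean. Thbs1, Lrrc32, Tgif1, Jun and Junb are higher in every IR than in every non-IR heart, and Smad6 is lower in every IR heart. Ctgf and Id1 overlap between conditions.

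Of 17 genes for secreted or membrane antagonists, 12 were tested and 0 were called (limma), where 3.49% of all genes were in the mean IR effect. The most abundant were Twsg1, a BMP-binding protein, at 21.1 and 23.4 FPKM and Nbl1 at 10.1 and 11.9 FPKM without and after IR. At the unadjusted threshold 2 were higher, Fst (follistatin, which binds activin) at 0.42 and Bambi (a pseudoreceptor) at 0.62, both named after their values were seen, where 7.93% of all genes were higher.

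Of 8 lists of cell markers, the summed level of 2 had an unadjusted exact p under 0.05 between IR and non-IR hearts, and 0 passed after Benjamini-Hochberg adjustment over the 8 (lowest adjusted exact p = 0.160). The mesothelial sum was 0.90 to 5.02 FPKM without and 2.47 to 6.99 after IR (exact permutation test within genotype, two-sided, p = 0.0250), and the blood sum 4.53 to 49.4 without and 1.47 to 13.2 after IR (exact p = 0.0450). The atrial sum had an exact p of 0.0600, and those of the endothelial, fibroblast, mural, macrophage and ventricular lists had exact p-values from 0.125 to 0.820. The exact p of the mesothelial sum was 0.0600 without Slit2-non-IR replicate 1 or 3 or Slit2-IR replicate 1 or 2. That of the blood sum was highest, 0.245, without Slit2-IR replicate 2, and without Slit2-non-IR replicate 2 the difference in the blood sum shrank from -11.5 to -4.79 FPKM (exact p = 0.155). Without C57-IR replicate 1 the exact p of the fibroblast sum was 0.0200. The neutrophil markers of the blood list, S100a8, S100a9 and Retnlg, were at 0 in 8, 5 and 9 of the 12 libraries and at no more than 0.583, 0.532 and 0.0834 FPKM in any. The part of these markers in the ligand values was not tested.

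Promoters were also read for the other ligands in the RefSeq table, which held 8 of the 10. Gdf10 and Inhba are shown because Gdf10 had the lowest estimate after IR in C57BL/6J hearts and Inhba had the highest correlation with Bmp2. Capitals in Gdf10 mark the EGR core (GTGGGCG, present on the other strand) at position -189 from the start. They also mark the core of a BMP response element, GGCGCC, at position 16. In Inhba they mark the letters searched for the TATA box, TATAAA, at position -91, a letter match and not a site. The Gdf10 window is chr14:33923337-33923636 and the Inhba window chr13:16011601-16011900, both on the plus strand of GRCm38.p6.
Gdf10: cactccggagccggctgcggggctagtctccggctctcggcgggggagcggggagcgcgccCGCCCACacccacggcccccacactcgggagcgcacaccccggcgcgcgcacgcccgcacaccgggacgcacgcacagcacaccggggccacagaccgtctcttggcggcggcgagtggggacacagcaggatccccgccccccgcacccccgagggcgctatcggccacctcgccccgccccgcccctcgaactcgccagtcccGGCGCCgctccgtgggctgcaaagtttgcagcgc
Inhba: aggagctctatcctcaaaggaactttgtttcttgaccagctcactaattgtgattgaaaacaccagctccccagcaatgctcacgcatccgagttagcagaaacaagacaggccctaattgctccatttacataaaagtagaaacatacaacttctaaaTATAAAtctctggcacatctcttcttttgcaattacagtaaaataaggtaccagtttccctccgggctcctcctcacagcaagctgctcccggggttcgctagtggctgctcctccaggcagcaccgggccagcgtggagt
The Gdf10 window is 77.3% and the Inhba window 47.7% G and C, against a median of 52.7% over all windows. The EGR core was found in 7.97%, GGCGCC in 11.9% and TATAAA in 13.6% of all windows. Among the other ligands, Tgfb1 and Bmp4 held the EGR core and Tgfb2, Bmp4 and Bmp6 the E-box CACGTG. Tgfb2 also held TATAAA at position -31, and Inhbb held the heat shock element letters GAANNTTC (7.86% of all windows) at position -227. No ligand window held TGANTCA or TGACGTCA, which were in 7.81% and 1.79% of all windows.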

How the data were processed

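The authors deposited FPKM per gene and library for 12 mouse heart libraries, made from paired-end reads. The labels' processing notes name HISAT2 and mm10, and how reads were counted, on which annotation and with which strand setting is not given in the sources used here. Genotype came from the labels, and IR or non-IR from the letters of each title. Multiplying FPKM by gene length gave whole numbers of 1 library-wide unit for 100% of values (tolerance 0.01 reads), which gave reads per gene and showed that the libraries were scaled together. Since FPKM is not a count, limma 3.58.1 (R 4.3.3) was fitted with a variance trend to log2(FPKM + 1) over all 12 libraries and 4 group means. Tested genes had at least 15 reads and, scaled to the median library, 10 or more in 3 or more libraries. The Benjamini-Hochberg adjustment ran over the tested genes of a contrast (threshold 0.05), and p-values measure the spread between hearts, since the labels call the samples independent. Replicates differed beyond counting noise, so none was a mere recount of another library. That check cannot show that they came from different hearts, which rests on the labels.

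The contrasts were the IR effect in each genotype and their mean, the genotype difference without and after IR and their mean, and the interaction. In a test on simulated data of the C57BL/6J IR comparison with 14913 genes, 97.5% of 200 genes changed 4-fold were recovered. The simulation assumed the same spread for every gene, not that of these hearts, and changed only genes above a read floor. The recovered share is therefore not the power of this design. Named genes were the 10 ligands, pathway genes past the adjusted threshold in any contrast, the 2 most abundant of each list, and for each ligand called in the mean IR effect the 3 genes with the highest Pearson r. A gene of the target list is not reported here. The members and lists were chosen with earlier results of these data known. Same-numbered libraries deviated together (each of 3 correlations over 0.1) in Slit2-IR against Slit2-non-IR (0.143 to 0.294) and Slit2-IR against C57-IR hearts (0.154 to 0.362), which rests on these correlations, as the labels name no shared batch. The correlations were 0.0833 to 0.295 in C57-IR against C57-non-IR hearts. They were 0.0377 to 0.324 in Slit2-non-IR against C57-non-IR hearts, and in both comparisons replicate 1 had the highest. Alternatives were a pseudocount of 0.1, every gene with 1 read or more, only the 6 libraries compared, a replicate block, upper-quartile scaling, limma-voom on the recovered reads and leaving out each library, and, chosen after seeing the data, leaving out replicate 1 of every group. Promoters are from RefSeq (GRCm38.p6), with 8 of 10 ligands matched. Columns left unused numbered 0.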

Additional observations from a re-analysis of the deposited data

How the results depend on the processing

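With 3 hearts a group, calls near the threshold moved with the processing. The count of ligands called in Slit2-Tg hearts after IR, 2, became 0 with every gene with 1 read or more tested, 1 with only the 6 libraries compared and 1 without replicate 1 of every group, and 0 to 2 on leaving out 1 library. In C57BL/6J hearts the count of 0 became 1 without replicate 1 of every group, and was 0 to 1 on leaving out 1 library, with Gdf15 called without C57-IR replicate 1. The mean IR effect had 2 to 3 calls, the third being Tgfb3, and genotype and interaction counts were 0 to 0 under every alternative run. Where the numbers paired the samples, the replicate block changed no ligand call and left the count at 2 in Slit2-Tg hearts, but of the named pathway genes it added Id1, Jun, Lrrc32, Tgif1 and Thbs1 there. For the mean IR effect, where they did not all pair, it gave 3, with Tgfb3 at an adjusted p of 0.0258 (limma).

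The IR effect of Bmp4 in C57BL/6J hearts, 0.00182, was -0.00171 with a pseudocount of 0.1 and -0.0355 with upper-quartile scaling. On leaving out libraries it ran from -0.16 to 0.178, in Slit2-Tg hearts from -0.318 to 0.0447, and for the mean from -0.158 to 0.0494. In Slit2-Tg hearts Gdf10 ran from -0.0586 to 0.344 and Bmp6 from -0.282 to 0.021. Differences in marker sums (IR minus non-IR, FPKM) ran from -15.9 to 26.4 for mural, -72.2 to 0.694 for macrophage, 112 to 217 for fibroblast, 2.09 to 3.22 for mesothelial, 50.1 to 475 for atrial and -16.0 to -4.79 for blood markers. Depth limits Gdf15, Inhba and Inhbb most, with 41 to 68 reads for Gdf15 in non-IR hearts.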
